A study of Mus musculus with 7 samples.

Results

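CD1 cells were compared with Cspg4- cells on 4 of the 7 arrays of a mouse expression series, within the Sdc4+ and within the Sdc4- fraction. The 4 arrays were chosen by their labels: CD1 Sdc4+, CD1 Sdc4-, Cspg4- Sdc4+ and Cspg4- Sdc4-. CD1 is the outbred stock Crl:CD1(ICR), and the labels name no transgene in it. The Cspg4- cells came from B6,FVB-Tg(Cspg4-cre)1Akik/J, a line that carries a transgene with Cre under control of Cspg4, the gene of the NG2 proteoglycan of pericytes, on a background of the B6 and FVB strains. The sign after Cspg4 marks cells without the trace of that transgene, and the labels do not say how it was read. Sdc4 encodes syndecan-4, a surface proteoglycan that muscle satellite cells, the resident stem cells of that tissue, are known to carry. On the other 3 arrays were Cspg4+ cells of the same transgenic line, Myf5SOR+ Sdc4+ cells of B6.129S4-Myf5tm3(cre)Sor/J mice, with Cre at the Myf5 gene of muscle precursors, and B195AP+ Sdc4- cells of B195AP-Cre mice, whose driver the labels do not explain. They are used only for levels beside the comparison. The series asked where muscle-forming cells of the dermis come from. Age, sex and culture are not given in the labels.

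Each population had 1 array. The labels give pools of 8 to 10 animals for a population, with RNA inputs between 10 and 200 ng. The p-values therefore measure only the spread between these arrays. That spread is how far a gene's line difference differed between the fractions, moderated over all genes. It does not come from repeated samples of a population. All arrays shared 1 slide. The Sdc4+ arrays lay in row 1 and the Sdc4- arrays in row 2, and the line difference was taken within a row. Both CD1 arrays lay in column 4 of the slide and the Cspg4- arrays in columns 3 and 2, so slide column and line cannot be told apart. Probe spots well above background made up 46.4% to 50.8% of an array. The 75th percentile of the signal was 242 and 212 on the CD1 Sdc4+ and Sdc4- arrays and 129 and 178 on the Cspg4- Sdc4+ and Sdc4- arrays. Levels are log2 signals relative to that percentile of the same array. Levels of different probes were not set against each other. Precision is limited by the small number of arrays.

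Within these 2 lines the gate gene was higher in the Sdc4+ fraction, and the lines were alike. Sdc4 was at 6.35 and 5.27 in CD1 Sdc4+ and Sdc4- cells, against 6.28 and 5.10 in Cspg4- Sdc4+ and Sdc4- cells (mean difference 0.12, SE 0.19, limma adjusted p = 0.789). On the Myf5SOR+ Sdc4+ array Sdc4 was at 3.79, below the Sdc4- cells of both lines, and on the B195AP+ Sdc4- array at 1.88. Cspg4 itself was at 1.18 and 1.02 in the CD1 cells and at 0.34 and 0.65 in the Cspg4- cells (difference 0.60, limma adjusted p = 0.323). The muscle progenitor genes Pax7, Pax3 and Myf5 were not well above background on any of the 4 arrays. Fibroblast transcripts were abundant in both lines, with 26 and 27 of 27 tested fibroblast markers well above background in CD1 and 26 and 27 in Cspg4- cells. Ptprc, which marks leukocytes, was not well above background on any of the 4 arrays, while the myeloid markers Fcer1g and C1qb were on all 4. In bulk samples such as these, fewer cells of a type and less RNA per cell cannot be told apart.

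The lines also differed in transcripts of the sex chromosomes. Eif2s3y, a translation factor gene of the Y chromosome, was not well above background in CD1 cells (-6.50 and -6.05) and was at 1.67 and 1.69 in Cspg4- cells. Ddx3y, a Y-linked helicase gene, was likewise not well above background in CD1 (-6.33 and -5.86) and at 1.35 and 1.03 in Cspg4- cells. Xist, the RNA that silences an X chromosome in female cells, was at 1.37 and 1.26 in CD1 and at -2.20 and -1.43 in Cspg4- cells. The line and the sex of the animals in the pools therefore cannot be told apart, and the account is kept to the autosomes.

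The question asked of each gene was whether it differed between the lines in the same way in both fractions. A gene was called agreeing if CD1 was at least 2-fold above, or at least 2-fold below, Cspg4- in each fraction, with its probe well above background on both arrays of the higher line. Of 18762 autosomal genes, 295 (1.57%) were higher in CD1 in both fractions and 312 (1.66%) were lower. Of these 607 genes, 43 of the higher and 62 of the lower genes were at least 4-fold different in both fractions. A plain gene symbol was held by 221 of the 295 higher and 210 of the 312 lower genes. The rest include transcripts and probes named by an identifier or a position, each counted as a gene. By size alone, a single fraction gave 678 higher and 1002 lower genes in Sdc4+ cells and 860 higher and 690 lower genes in Sdc4- cells. These counts did not require the probe to be well above background on both arrays of the higher line. The line differences of the fractions, which share no array, had a Pearson r of 0.50 across the autosomal genes. Genes are not independent replicates, and this value describes the arrays only.

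**Figure D1:**
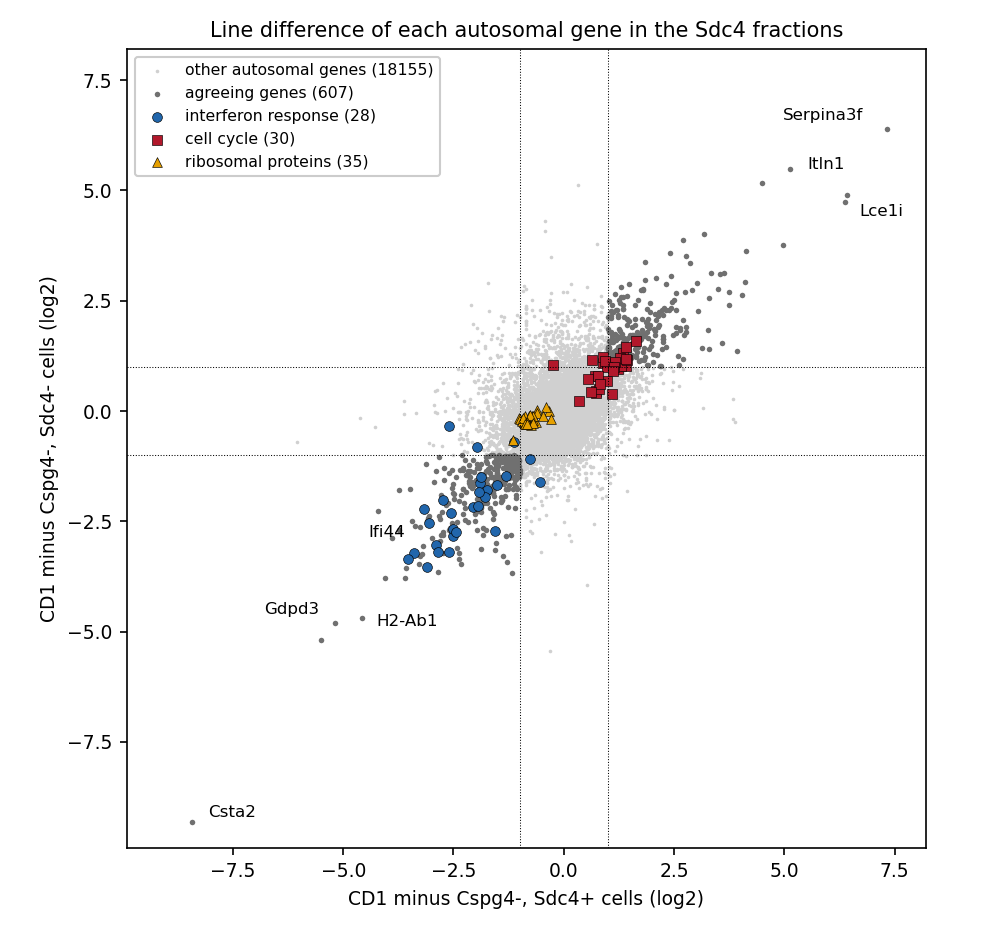
Each point is an autosomal gene, with its CD1 minus Cspg4- difference (log2) in Sdc4+ cells on the x axis and in Sdc4- cells on the y axis, and dotted lines mark a 2-fold difference. The 607 agreeing genes lie in the upper right and lower left corners, where interferon response genes (blue circles) fall to the lower left and cell cycle genes (red squares) lie around 1 on both axes.

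The agreement rule sets the size of the difference, so the values of the agreeing genes are a description. Just inside the limit, Ajuba differed by 1.00 and 1.19 in Sdc4+ and Sdc4- cells and Parp9 by -1.001 and -1.34. Just outside it, Clic4 differed by 1.14 and 0.999 and Samd9l by -0.9997 and -1.52.

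A limma fit with the line and the fraction as terms was run over all 19687 genes, with Benjamini-Hochberg adjustment. It leaves 1 residual degree of freedom. In that fit 34 genes passed an adjusted p of 0.05, or 0.173% of the genes tested, 9 of them higher (0.0457%) and 25 lower (0.127%) in CD1. With each array scaled to its median in place of its 75th percentile, 162 passed, 89 higher and 73 lower. The smallest adjusted p was 0.0306, and 3055 genes had an unadjusted p under 0.05. For the fraction in the same fit, 0 genes passed (smallest adjusted p 0.142), and 1951 had an unadjusted p under 0.05. The difference between these counts was not tested. Of the 34 genes, 29 were autosomal, and all 29 also met the agreement rule, which uses the same contrast. With 1 array left out the fraction term could not be kept. Without that term 130 genes passed on all 4 arrays, 0 without CD1 Sdc4+ (1555 at an unadjusted p under 0.05) and 0 without CD1 Sdc4- (1647 at an unadjusted p under 0.05).

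Among the 16 passing autosomal genes with a plain symbol, 3 rose in CD1. Serpina3f, a serine protease inhibitor of the acute phase family, was at 5.99 and 5.15 in CD1 Sdc4+ and Sdc4- cells and at -1.33 and -1.26 in Cspg4- Sdc4+ and Sdc4- cells. The CD1 arrays were 116-fold higher on average (log2 6.86, SE 0.29, limma adjusted p = 0.0336). Itln1, an intelectin that binds sugars of microbes, was at 1.53 and 1.57 in CD1 cells and not well above background in Cspg4- cells, at least 39.7-fold higher (limma adjusted p = 0.0408). Dydc2, named for a DPY30 domain, was at -1.33 and -1.58 in CD1 cells and not well above background in Cspg4- cells, at least 4.94-fold higher (limma adjusted p = 0.0336). The second probe of Dydc2 was dim, at -3.44 and -3.66 in CD1 cells and -5.88 and -6.25 in Cspg4- cells, and differed by only 0.16 and 0.25 with dim values raised to the floor. For each of these genes the lower CD1 array stood above both Cspg4- arrays.

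The other 13 fell in CD1. Csta2, a stefin that inhibits cysteine proteases, had the largest difference of them. It was at -2.97 and -3.04 in CD1 cells and at 5.46 and 6.26 in Cspg4- cells, 468-fold lower (log2 -8.87, SE 0.29, limma adjusted p = 0.0306; probe on mm9 chromosome 16, 36257452 to 36257511). Csta2 was at 5.46 on the Cspg4+ array, 7.29 on the Myf5SOR+ Sdc4+ array and 4.17 on the B195AP+ Sdc4- array, which the comparison did not use, all above the CD1 arrays. Gdpd3, a glycerophosphodiester phosphodiesterase, was not well above background in CD1 cells and was at 0.73 and 0.86 in Cspg4- cells, at least 31.8-fold lower (limma adjusted p = 0.0306). Gdpd3 was at 0.45 on the Cspg4+ array and not well above background on the Myf5SOR+ and B195AP+ arrays.

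Several of the falling genes were detected in Cspg4- cells and not in CD1. The zinc finger gene Zfp979 was at background in CD1 cells and at -0.88 and -0.39 in Cspg4- cells, at least 11.8-fold lower (limma adjusted p = 0.0306). Zfp874a, of the same class, was at background in CD1 cells and at -0.57 and -1.05 in Cspg4- cells, at least 10.5-fold lower (limma adjusted p = 0.0477). Trim12a, a member of the family of the antiviral factor TRIM5, was at background in CD1 cells and at -1.47 and -1.05 in Cspg4- cells, at least 7.65-fold lower (limma adjusted p = 0.0306). Klra2, a Ly49 receptor gene, and Mc3r, a melanocortin receptor gene, were named after their values were seen. Klra2 was at -6.33 and -5.89 in CD1 cells and -0.73 and -1.25 in Cspg4- cells. Mc3r was at -6.31 and -6.07 in CD1 cells and -2.81 and -2.44 in Cspg4- cells. Each had a limma adjusted p of 0.0477. In CD1 cells both lay under the lowest well-above-background signal of the array, -4.46 in Sdc4+ and -3.93 in Sdc4- cells. Their CD1 values are background, and no fold is given.

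The remaining 6 were bright in Cspg4- cells. Apol9a and Apol9b, related apolipoprotein L genes, were at 0.27 and 0.02 and at 0.07 and -0.25 in CD1 cells, against 3.55 and 3.49 and 3.66 and 3.54 in Cspg4- cells. They were 10.4-fold and 12.9-fold lower in CD1 (limma adjusted p = 0.0477 for each), and near-identical copies such as these may share signal. Dusp23, a phosphatase gene, was at -0.79 and -0.87 in CD1 cells and at 2.40 and 2.18 in Cspg4- cells, 8.69-fold lower (limma adjusted p = 0.0477). The others, H2-Ab1, Ifi27l2a and Ifi44, belong to the interferon and histocompatibility groups.

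**Figure D2:**
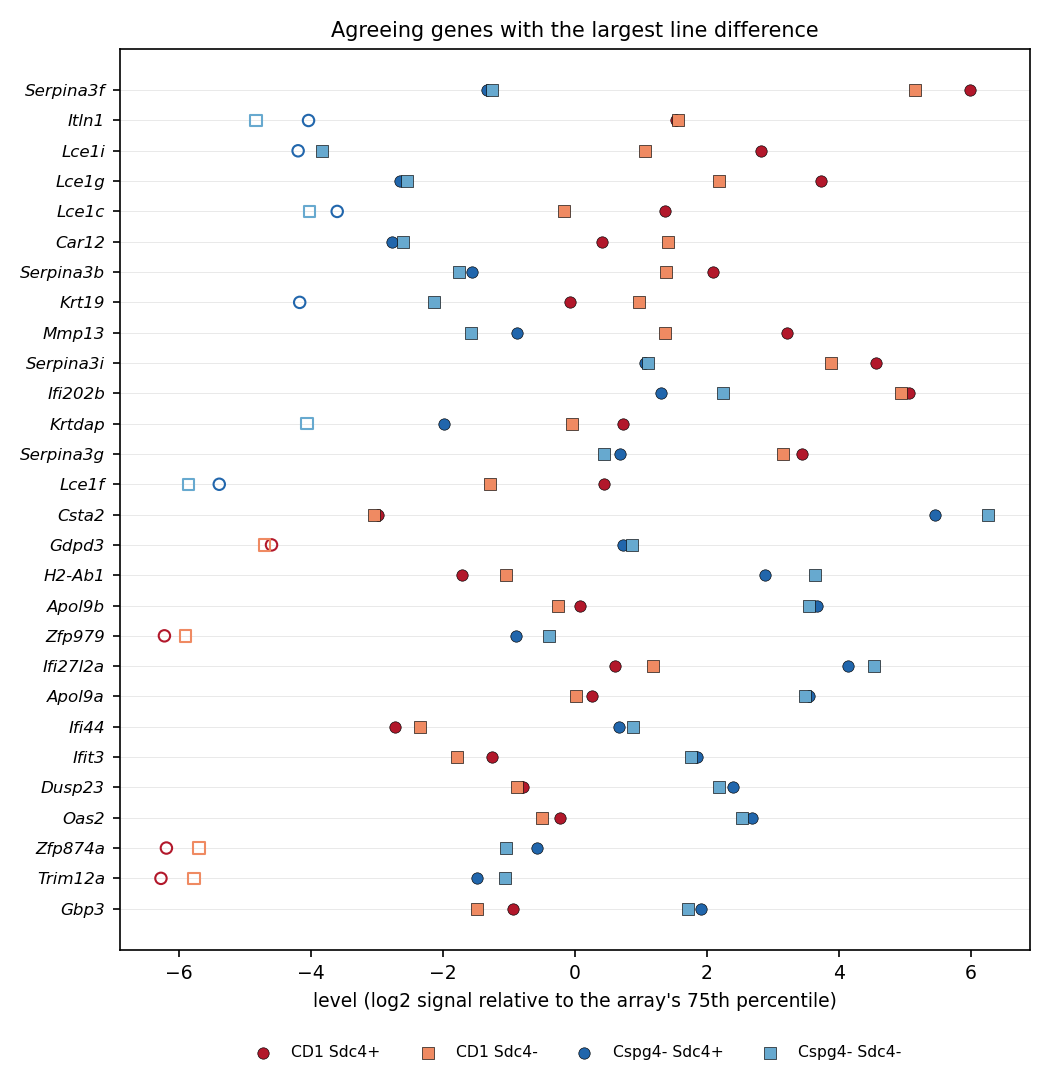
The 14 higher and 14 lower genes with the largest agreeing difference are shown with their level on each array (log2 relative to the 75th percentile), CD1 in red and orange, Cspg4- in blue, Sdc4+ as circles and Sdc4- as squares, and open symbols where the probe was not well above background. The CD1 and Cspg4- symbols stand on opposite sides in each row, from Serpina3f at 5.99 and 5.15 in CD1 to Csta2 at -2.97 and -3.04 in CD1.

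Interferon response genes made up the group with the lowest median in CD1. Type I interferons bind a receptor that activates STAT proteins, which join IRF9 on an interferon-stimulated response element in the promoters of antiviral genes. Cells without infection keep a low tonic level of these transcripts, and IRF7 is itself an induced gene that amplifies interferon production. Of 28 listed genes, all 28 were tested and each was lower in CD1 in both fractions. The agreement rule called 23 of 28 lower and 0 higher, beside 1.66% of autosomal genes lower. The list median was -2.21, against -0.03 over all autosomal genes, and was alike in the fractions (-2.25 in Sdc4+ and -2.17 in Sdc4- cells).

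A core of the response element was searched in promoters: a pair of GAAA half-sites in the same orientation with any 2 bases between them, on either strand. Promoters of 4 lower genes are shown, picked from those with a match. Each runs from 250 bases before to 50 after the gene start, 5′ to 3′ along the gene, from RefSeq on GRCm38.p6. Capitals mark the matches, overlapping ones run together.
Isg15 (chr4:156200769-156201068, minus strand): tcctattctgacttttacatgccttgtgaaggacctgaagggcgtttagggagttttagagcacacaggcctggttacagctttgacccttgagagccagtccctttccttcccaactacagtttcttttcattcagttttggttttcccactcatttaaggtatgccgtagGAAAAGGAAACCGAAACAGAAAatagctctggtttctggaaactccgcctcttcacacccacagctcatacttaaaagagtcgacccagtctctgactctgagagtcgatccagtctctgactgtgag
Ifit3 (chr19:34583279-34583578, plus strand): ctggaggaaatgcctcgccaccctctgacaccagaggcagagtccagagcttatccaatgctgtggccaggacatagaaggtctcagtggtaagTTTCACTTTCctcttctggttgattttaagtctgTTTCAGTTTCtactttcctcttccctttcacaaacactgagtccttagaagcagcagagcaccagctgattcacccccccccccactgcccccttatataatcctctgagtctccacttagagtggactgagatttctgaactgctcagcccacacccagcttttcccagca
Gbp3 (chr3:142559794-142560093, plus strand): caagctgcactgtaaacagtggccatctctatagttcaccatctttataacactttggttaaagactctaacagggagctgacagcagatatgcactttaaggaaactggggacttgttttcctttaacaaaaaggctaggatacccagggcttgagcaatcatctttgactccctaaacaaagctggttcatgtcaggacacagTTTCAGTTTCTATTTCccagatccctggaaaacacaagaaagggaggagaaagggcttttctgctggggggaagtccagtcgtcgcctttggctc
Rsad2 (chr12:26456403-26456702, minus strand): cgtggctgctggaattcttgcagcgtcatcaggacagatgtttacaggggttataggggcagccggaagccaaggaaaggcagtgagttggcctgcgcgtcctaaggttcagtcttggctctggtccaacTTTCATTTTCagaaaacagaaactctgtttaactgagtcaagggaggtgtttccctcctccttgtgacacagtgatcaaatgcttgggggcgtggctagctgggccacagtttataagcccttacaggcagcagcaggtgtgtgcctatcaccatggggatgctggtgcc
Matches numbered 3 for Isg15, 2 for Ifit3, 2 for Gbp3 and 1 for Rsad2. Gbp3 has another listed start, whose promoter held none. The core was present for 10 of the 15 lower list genes with a promoter in the table (66.7%) and for 3.70% of 10668 tested autosomal genes. Ifi44, Irf7, Oasl2, Xaf1 and Irf9 are the lower list genes without it. Over all tested list genes, agreeing or not, the core was present for 12 of 19 (63.2%). Among all agreeing genes it was present for 4.62% of the 173 higher and 20.8% of the 173 lower genes. Without the list members it was present for 26 of 158 lower genes (16.5%). It was present for 1 of 27 cell cycle genes. A match describes the letters and not a site in use.

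The 23 agreeing members were lower by 2.61-fold (Irf9) to 10.9-fold (Ifi27l2a). Ifi27l2a, an interferon-induced membrane protein of mitochondria, was at 0.60 and 1.19 in CD1 cells and at 4.14 and 4.53 in Cspg4- cells, 10.9-fold lower (log2 -3.44, SE 0.19, limma adjusted p = 0.0477). Ifi44, induced by interferon and known to restrain viruses, was at -2.72 and -2.34 in CD1 cells and at 0.67 and 0.88 in Cspg4- cells, 9.92-fold lower (log2 -3.31, SE 0.19, limma adjusted p = 0.0477). These 2 genes passed the test. Ifit3, which binds viral RNA together with Ifit1, was at -1.26 and -1.78 in CD1 cells and at 1.85 and 1.76 in Cspg4- cells, a difference of -3.32 that missed the threshold (limma adjusted p = 0.0528). Isg15, a ubiquitin-like modifier, was at 3.51 and 3.41 in CD1 cells and at 6.05 and 5.71 in Cspg4- cells (difference -2.42, limma adjusted p = 0.0593). Usp18, which removes Isg15 and dampens the receptor, was at 0.03 and -0.43 in CD1 cells and at 2.62 and 2.77 in Cspg4- cells.

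The signalling genes of the pathway were lower too. Irf7 was at -0.82 and -0.64 in CD1 cells and at 2.24 and 1.90 in Cspg4- cells (difference -2.80, limma adjusted p = 0.0593). Stat2 was at 1.07 and 1.43 in CD1 cells and at 2.80 and 3.23 in Cspg4- cells. Irf9 was at 1.44 and 1.23 in CD1 cells and at 2.75 and 2.69 in Cspg4- cells. In each of these genes the higher CD1 array stood below the lower Cspg4- array. The 5 list members outside the agreement rule, Ifit2 and Cxcl10 among them, had mean differences between -1.47 and -0.92. Cxcl10, a chemokine, was at 1.24 and 1.73 in CD1 cells and at 3.84 and 2.07 in Cspg4- cells, so that its difference lay mainly in the Sdc4+ fraction.

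On arrays that the comparison did not use, the list had a median level of 2.65 in Cspg4+ cells, 2.56 in B195AP+ Sdc4- cells and 1.09 in Myf5SOR+ Sdc4+ cells. The CD1 Sdc4+ and Sdc4- arrays had medians of 0.39 and 0.10, and the Cspg4- Sdc4+ and Sdc4- arrays 2.63 and 2.19. The Myf5SOR+ cells thus lay between the lines. The B195AP+ array had 689 outlier spots, against 153 to 168 on the 4 arrays compared. Markers of blood cells were read beside this group. The summed level of 11 tested myeloid markers was 5.47 and 5.38 in CD1 cells and 6.14 and 5.77 in Cspg4- cells, of which 10 and 10 were well above background in CD1 and 9 and 10 in Cspg4- cells. For 7 tested lymphocyte markers it was 2.57 and 2.84 in CD1 and 2.89 and 2.95 in Cspg4- cells. The markers of these lists were mixed. Ptprc, Adgre1 and Cd3d, among others, were not well above background on any of the 4 arrays. Fcer1g, C1qb, Aif1, Cd3e and Lck, among others, were on all 4. The part of these cells in the result was not tested.

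**Figure D3:**
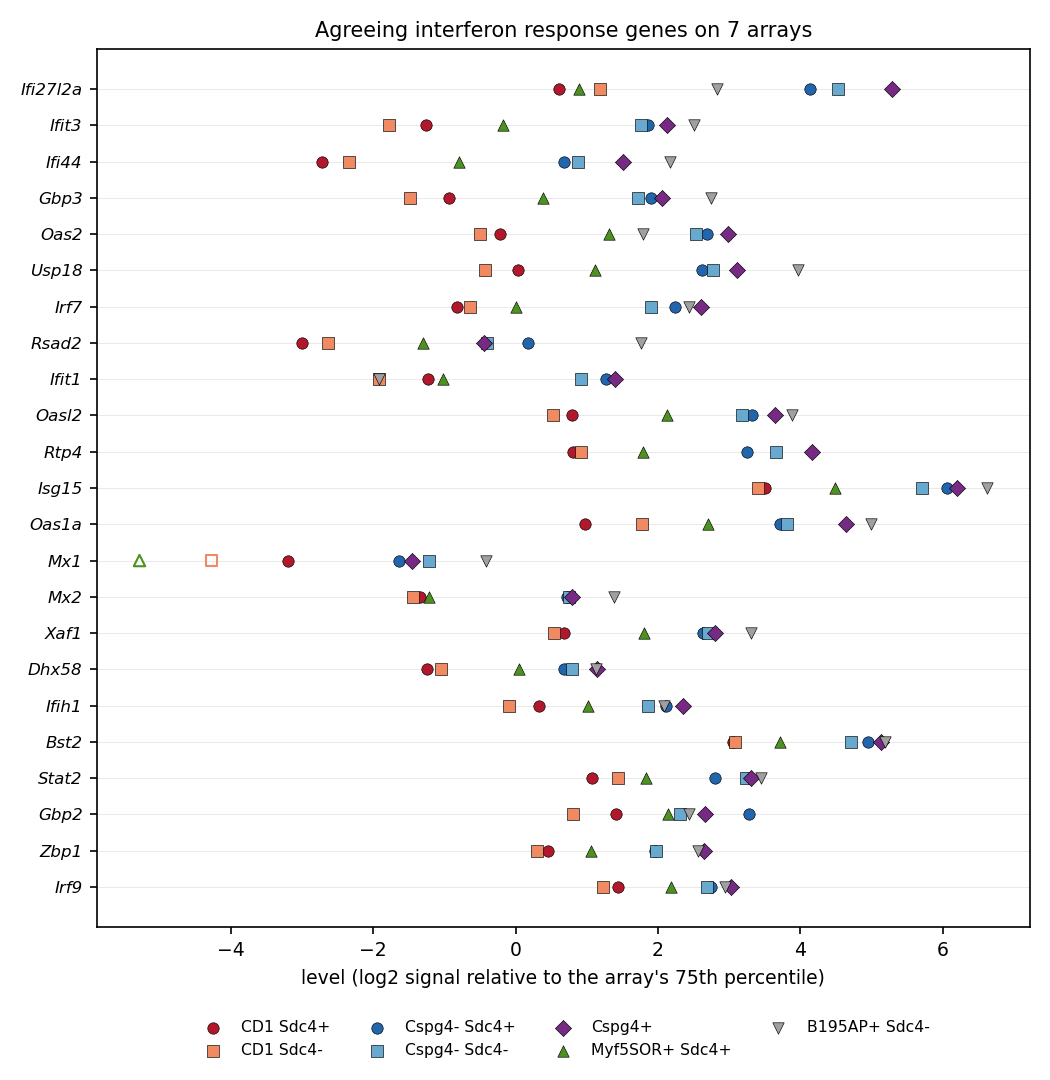
Levels of the 23 agreeing interferon response genes (log2 relative to the array's 75th percentile), ordered by line difference, on the 4 arrays compared and on the Cspg4+, Myf5SOR+ Sdc4+ and B195AP+ Sdc4- arrays; open symbols were not well above background. CD1 symbols (red, orange) stand left of the Cspg4- symbols (blue) in each row, and over the whole list of 28 the median was 2.65 in Cspg4+ cells (purple), 1.09 in Myf5SOR+ cells (green) and 2.56 in B195AP+ cells (grey), where Rtp4 has no value.

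Families near this pathway were read as whole gene groups, chosen after values were seen. The Oas family includes enzymes that make the messenger that activates RNase L. Of 9 tested Oas genes, 7 were agreeing lower and 0 higher, beside 1.66% and 1.57% of autosomal genes. Oas2 was at -0.22 and -0.50 in CD1 cells and at 2.68 and 2.53 in Cspg4- cells, and Oas3 was at least 7.74-fold lower in CD1 (limma adjusted p = 0.0593). Oas1b differed by only -0.01 (5.16 and 5.13 in CD1, 5.10 and 5.22 in Cspg4- cells). All 3 tested Phf11 genes were agreeing lower, with Phf11d at 1.55 and 1.30 in CD1 cells and 3.72 and 3.82 in Cspg4- cells. Of 5 Trim12 and Trim30 genes, 3 were agreeing lower and 0 higher.

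The Ifi200 family, DNA sensors encoded side by side on chromosome 1, went both ways. Ifi202b, an inhibitor of the AIM2 sensor, was at 5.06 and 4.95 in CD1 cells and at 1.30 and 2.24 in Cspg4- cells, 9.39-fold higher (limma adjusted p = 0.0706). It was at -3.64 on the Cspg4+ array, far below the Cspg4- cells of the same line. Aim2 was also agreeing higher, at -0.17 and -1.30 in CD1 cells and -1.99 and -2.46 in Cspg4- cells. Ifi209 and Ifi211 were agreeing lower, 7.48-fold and 4.32-fold. Ifi204 was level, at 6.49 and 6.45 in CD1 cells and 6.38 and 6.51 in Cspg4- cells.

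Acute phase and complement genes differed in both directions. Of 20 tested, 7 were agreeing higher and 2 lower in CD1, beside 1.57% and 1.66% of autosomal genes. The 7 include Serpina3f, Serpina3g, Serpina3h and Serpina3i, and the 2 include Serpina3m, all of 1 cluster and counted again with it below. The direction of Serpina3i differs between probes. The limma test passed 1 of the 20, Serpina3f, beside 0.173% of all genes. Saa3, an acute phase apolipoprotein, was at 8.18 and 7.13 in CD1 cells and at 6.73 and 6.02 in Cspg4- cells. Hp, the haemoglobin scavenger haptoglobin, was at 5.55 and 4.74 in CD1 cells and 4.22 and 3.46 in Cspg4- cells. C3, the central complement component, was at 5.52 and 5.70 in CD1 cells and 4.35 and 4.67 in Cspg4- cells, while C4b, which acts upstream of it, was at 2.41 and 2.53 in CD1 cells and 3.60 and 3.89 in Cspg4- cells. Lcn2, an iron-binding protein of the same response, was level (difference -0.03).

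The 8 tested genes of the Serpina3 cluster on chromosome 12, expanded in the mouse from what is a single gene in humans, split within a short interval. Of them, 5 were agreeing higher in CD1 and 2 lower, beside 1.57% and 1.66% of autosomal genes. Beside Serpina3f, Serpina3b was at 2.09 and 1.37 in CD1 cells and at -1.55 and -1.75 in Cspg4- cells, 10.4-fold higher (limma adjusted p = 0.0561). Serpina3g was at 3.44 and 3.15 in CD1 cells and 0.69 and 0.45 in Cspg4- cells. Serpina3m was 6.94-fold lower, at 3.67 and 2.50 in CD1 cells and 6.04 and 5.72 in Cspg4- cells (limma adjusted p = 0.0715). Serpina3n, the bright member, was at 7.09 and 6.57 in CD1 cells and 6.44 and 6.18 in Cspg4- cells. The 60-base probes of these 8 genes shared runs of at most 14 bases (Serpina3b with Serpina3f), and at most 7 in the other pairs.

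Second probes bear on this cluster. The next brightest probe of Serpina3f was at 2.20 and 1.02 in CD1 cells and -0.74 and -0.91 in Cspg4- cells, a difference of 2.43 against 6.86 on the probe used. That of Serpina3i was at 1.51 and 1.51 in CD1 cells and 1.64 and 1.78 in Cspg4- cells (difference -0.20), while the probe used was at 4.57 and 3.88 in CD1 cells and 1.06 and 1.11 in Cspg4- cells. The direction for Serpina3i thus depends on the probe.

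Of the Lce1 genes of the skin surface, 4 were among the highest in CD1. The Lce genes encode late cornified envelope proteins, laid down when keratinocytes form the skin barrier. Of 11 tested Lce genes, 4 were agreeing higher, all of them Lce1 genes, and 2 lower, both Lce3 genes, beside 1.57% and 1.66% of autosomal genes. Lce1i was at 2.82 and 1.07 in CD1 cells and at -4.19 and -3.82 in Cspg4- cells (limma adjusted p = 0.0682). Its probe was well above background on 1 of the 2 Cspg4- arrays, and with the dim value raised to the floor Lce1i differed by 6.42 in Sdc4+ and 4.89 in Sdc4- cells. Lce1g was at 3.73 and 2.18 in CD1 cells and -2.64 and -2.54 in Cspg4- cells, 47.0-fold higher (limma adjusted p = 0.0593). Lce1c was at least 20.6-fold and Lce1f at least 10.1-fold higher. Lce1a2 and Lce1j did not meet the rule, with differences of 1.33 and 1.27 in Sdc4+ and 0.04 and 0.03 in Sdc4- cells. On the B195AP+ Sdc4- array Lce1g, Lce1i and Lce1c were also well above background, at 1.05, -0.11 and -1.27, and Lce1f was not. Lce3a was lower, at -1.38 and -1.33 in CD1 cells and 0.65 and 1.01 in Cspg4- cells, as was Lce3c (mean difference -1.75). Lce3b and Lce3d were lower in both fractions without meeting the rule (mean differences -1.04 and -0.63). Krtdap, a secreted protein of differentiating keratinocytes, was at 0.72 and -0.05 in CD1 cells and -1.98 and -4.06 in Cspg4- cells. Krt19, a keratin of simple epithelia and hair follicles, was at -0.07 and 0.97 in CD1 cells and -4.17 and -2.13 in Cspg4- cells.

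The keratinocyte marker list as a whole did not go with them. Of 12 tested markers, 0 were agreeing in either direction, beside 1.57% and 1.66% of autosomal genes. By sign alone, 3 were higher and 3 lower in both fractions. The list median was 0.10 (-0.58 in Sdc4+ and 0.40 in Sdc4- cells). Krt5, of basal keratinocytes, was at -2.90 and -1.89 in CD1 cells and at -0.49 and -2.23 in Cspg4- cells. Krt10, of differentiating keratinocytes, was at 0.06 and 0.09 in CD1 cells and at -0.25 and -0.31 in Cspg4- cells. Ivl was higher in CD1 by 0.97 in Sdc4+ and 0.84 in Sdc4- cells, just short of the rule. Lor was well above background only in CD1 Sdc4+ cells among the 4 arrays. The summed level of the list was 5.88 and 5.74 in CD1 cells and 5.16 and 5.46 in Cspg4- cells, with 12 and 10 of the 12 markers well above background in CD1 and 12 and 10 in Cspg4- cells. Krt1, Krt15, Cdh1 and Epcam were not well above background on any of the 4 arrays. The part of keratinocytes in the Lce result was not tested.

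Cell cycle genes were higher in CD1 as a block of small differences. Of 30 tested, 29 were higher in both fractions and 0 lower, and 11 were agreeing higher, beside 1.57% of autosomal genes. The list median was 1.00, with 0.97 in Sdc4+ and 1.01 in Sdc4- cells. The median level was 3.22 and 3.42 in CD1 and 2.14 and 2.24 in Cspg4- cells. On arrays outside the comparison it was 3.51 in B195AP+ Sdc4-, 2.66 in Cspg4+ and 2.13 in Myf5SOR+ Sdc4+ cells. High levels of these genes were thus not confined to CD1. None passed the limma test (adjusted p of 0.0781 or more). Kif20a, a kinesin of cytokinesis, was at 2.63 and 2.70 in CD1 cells and 1.01 and 1.11 in Cspg4- cells, 3.04-fold higher. Ccnb2, a mitotic cyclin, was at 4.30 and 4.61 in CD1 cells and 2.97 and 3.29 in Cspg4- cells. Cdk1, its kinase, was at 1.67 and 1.99 in CD1 cells and 0.41 and 0.79 in Cspg4- cells. The next probe of Cdk1 was dim and differed by 0.24 in Sdc4+ and 0.85 in Sdc4- cells, with values under the floor raised to it. Pcna, the sliding clamp of DNA replication, was at 5.28 and 5.29 in CD1 cells and 4.15 and 4.29 in Cspg4- cells. Mcm3, of the replicative helicase, was at 3.58 and 3.70 in CD1 cells and 2.16 and 2.24 in Cspg4- cells on the probe used and level on its next probe (difference 0.09). Mki67, the proliferation marker, was at 3.91 and 4.50 in CD1 cells and 2.68 and 3.54 in Cspg4- cells and missed the 2-fold limit in Sdc4- cells.

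Ribosomal protein genes were lower in CD1 by less than 2-fold. Of 35 tested, 33 were lower in both fractions, 0 met the agreement rule and 0 passed the limma test. Their median difference was -0.50, with -0.77 in Sdc4+ and -0.20 in Sdc4- cells, and single genes lay between -0.90 and -0.16. The 75th percentiles used for scaling also lay further apart in Sdc4+ cells (242 in CD1, 129 in Cspg4-) than in Sdc4- cells (212 and 178). The part of scaling and of bright signal in this shift was not tested. Rps3, at the lower end, was at 7.40 and 7.84 in CD1 cells and 8.55 and 8.51 in Cspg4- cells.

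Contractile genes of muscle were higher in CD1 mainly in the Sdc4- fraction. The median of 25 tested sarcomere genes was 0.22 in Sdc4+ and 1.95 in Sdc4- cells, a difference between fractions that was not tested. Of the list, 3 genes were agreeing higher (12%) and 0 lower, beside 1.57% and 1.66% of autosomal genes. Acta1, skeletal muscle actin, was at 0.02 and 3.19 in CD1 Sdc4+ and Sdc4- cells and at -2.43 and 0.71 in Cspg4- Sdc4+ and Sdc4- cells, 5.54-fold higher (limma adjusted p = 0.0591). Myl1, an alkali light chain of fast fibres, was at -1.91 and 3.94 in CD1 cells and -4.04 and 1.42 in Cspg4- cells, and Myh8, the perinatal myosin heavy chain, was at -2.19 and 3.80 in CD1 cells and -4.67 and 2.21 in Cspg4- cells. Within each line these genes were higher in the Sdc4- cells, by more than the lines differed. The next probe of Myl1 was at -5.65 and -0.07 in CD1 Sdc4+ and Sdc4- cells and at -5.66 and -3.23 in Cspg4- Sdc4+ and Sdc4- cells, so that it showed the difference in the Sdc4- fraction alone.

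Of 26 tested myogenic regulators and satellite cell genes, 0 were agreeing higher and 2 lower (7.69%, beside 1.66% of autosomal genes). Their median was 0.15, and single genes lay between -1.50 and 1.77. Met, the receptor of hepatocyte growth factor that draws muscle precursors into the limb, was at -2.27 and -2.56 in CD1 cells and -0.86 and -0.96 in Cspg4- cells. Six4, a homeobox gene upstream of the myogenic factors, was at -3.12 and -3.95 in CD1 cells and -1.35 and -2.90 in Cspg4- cells. Myod1 was well above background on 1 of the 4 arrays, CD1 Sdc4-.

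Of 24 tested genes of the histocompatibility list, 0 were agreeing higher and 1 lower (4.17%), beside 1.57% and 1.66% of autosomal genes. The lower gene was H2-Ab1. It encodes the beta chain of a class II molecule that presents peptides to CD4+ T cells. It was at -1.70 and -1.04 in CD1 cells and at 2.88 and 3.64 in Cspg4- cells, and fell 24.8-fold in CD1 (log2 -4.63, SE 0.19, limma adjusted p = 0.0306; probe on mm9 chromosome 17, 34406296 to 34406355). Its second probe gave -2.10 and -1.32 in CD1 cells and 2.72 and 3.45 in Cspg4- cells. H2-Aa, the alpha chain that pairs with it, was not well above background on any of the 4 arrays. Of other class II genes, H2-Eb1 was at -1.05 and -0.04 in CD1 cells and -1.73 and -2.36 in Cspg4- cells, and Cd74, the invariant chain, at -2.31 and -2.59 in CD1 cells and -4.29 and -3.01 in Cspg4- cells. Of the class I genes, H2-K1 was at 7.38 and 7.07 in CD1 cells and 6.89 and 6.80 in Cspg4- cells. Off the list, and named after their values were seen, H2-Q5 was agreeing lower, at 2.02 and 2.18 in CD1 cells and 3.26 and 3.70 in Cspg4- cells, and H2-M9 agreeing higher, at -1.55 and -2.58 in CD1 cells and -3.35 and -4.93 in Cspg4- cells.

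Cytokines and myeloid genes gave single differences. Ccl5, a chemokine for T cells that interferon also induces, was at -1.29 and -0.24 in CD1 cells and 1.78 and 2.18 in Cspg4- cells, 6.70-fold lower (limma adjusted p = 0.0642). Cxcl5, a chemokine for neutrophils, was at 2.54 and 3.36 in CD1 cells and 0.78 and 0.62 in Cspg4- cells, 4.75-fold higher (limma adjusted p = 0.108). Csf3, the granulocyte growth factor, was at -2.34 and -0.47 in CD1 cells and -3.68 and -1.94 in Cspg4- cells. Over 24 tested genes of this list 2 were agreeing higher (8.33%) and 1 lower (4.17%), beside 1.57% and 1.66% of autosomal genes. Cd14, a receptor for endotoxin, and Aif1, of macrophages, were agreeing higher and the IgG receptor Fcgr2b lower. S100a8 and Camp, granule proteins of neutrophils named after their values were seen, were at 5.19 and 5.10 and at 2.48 and 2.06 in CD1 cells, against 3.11 and 3.03 and 0.52 and -0.39 in Cspg4- cells.

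Matrix and mesenchymal genes differed one by one. Mmp13, a collagenase, was at 3.22 and 1.36 in CD1 cells and -0.88 and -1.57 in Cspg4- cells, 11.4-fold higher (limma adjusted p = 0.0691). Mmp10, a stromelysin, was 2.20-fold higher. Of 23 tested matrix turnover genes these 2 were agreeing higher (8.7%, beside 1.57% of autosomal genes) and 0 lower. By sign alone, 7 were higher and 9 lower in both fractions, and the list median was -0.28. Postn, a matrix protein of activated fibroblasts, was the agreeing member among 27 fibroblast genes (3.7%, beside 1.57% of autosomal genes higher). It was at -0.56 and -0.05 in CD1 cells and -2.47 and -2.13 in Cspg4- cells. The fibroblast list as a whole went the other way, with a median of -0.28, and 14 genes lower and 4 higher in both fractions. In the dermal papilla list Alpl, alkaline phosphatase, and Cd24a were agreeing higher and the guidance factor Ntn1 lower. Both higher genes were well above background on 1 of the 2 Cspg4- arrays, and with the dim value raised to the floor Alpl differed by 1.62 and 2.08 and Cd24a by 1.83 and 1.75 in Sdc4+ and Sdc4- cells. Abcc9, a potassium channel subunit of pericytes, was agreeing lower, at -5.12 and -3.51 in CD1 cells and -2.23 and -2.06 in Cspg4- cells. Car12, a carbonic anhydrase at the cell surface, was at 0.41 and 1.42 in CD1 cells and -2.77 and -2.60 in Cspg4- cells, and its relative Car9, a hypoxia gene, was 2.70-fold higher. Wt1, a transcription factor of mesothelium and kidney named after its values were seen, was at -1.17 and -0.43 in CD1 cells and -5.70 and -3.48 in Cspg4- cells.

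In the Wnt and BMP list 3 of 24 tested genes were agreeing higher, beside 1.57% of autosomal genes, and 0 lower. Id1, a target of BMP, was at 4.88 and 4.09 in CD1 cells and 3.77 and 2.48 in Cspg4- cells. Nkd1, a Wnt feedback inhibitor, was agreeing higher (2.23-fold). Gsta4, a glutathione transferase, was 3.38-fold higher and Aldh3a1, an aldehyde dehydrogenase, 2.74-fold lower. In the lipid lists Lpl, lipoprotein lipase, was 2.16-fold higher and Dhcr7, of cholesterol synthesis, 2.17-fold lower. Hox genes (20 tested), imprinted genes (24), early and stress genes (20), endothelium (8), mast cells (9) and melanocytes (9) had 0 agreeing members. The mast cell list had the median -1.34, from -2.34 in Sdc4+ to 0.20 in Sdc4- cells.

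**Figure D4:**
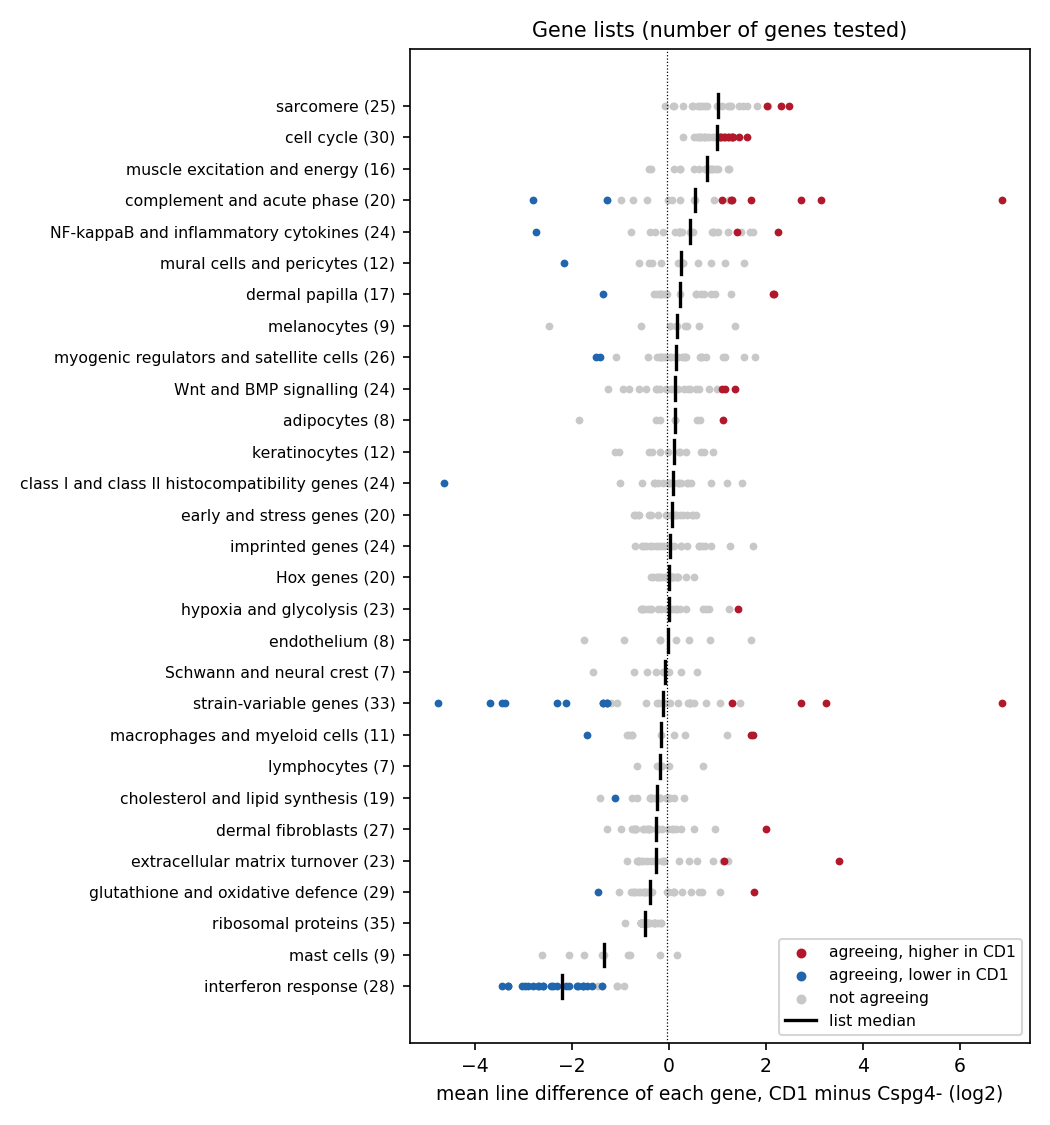
Each row is a gene list with the number of genes tested, each point a gene at its mean CD1 minus Cspg4- difference (log2), red where agreeing higher, blue where agreeing lower, grey otherwise; bars are list medians and the dotted line is the median of all autosomal genes. The interferon list lies lowest at -2.21, and the sarcomere and cell cycle lists lie highest at 1.02 and 1.00.

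Genes known to vary between mouse strains formed a further list, chosen with earlier results of these data known. Of 33 tested, 4 were agreeing higher and 10 lower, beside 1.57% and 1.66% of autosomal genes. The limma test passed 5 of them, beside 0.173% of all genes. Nnt, the mitochondrial transhydrogenase known to be deleted in part in C57BL/6J, was at 2.04 and 1.99 in CD1 cells and 0.87 and 1.06 in Cspg4- cells (difference 1.05, limma adjusted p = 0.151). Glo1, a glyoxalase known to be duplicated in some strains, was at 2.92 and 2.91 in CD1 cells and 2.55 and 2.43 in Cspg4- cells.

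A second probe was present for some agreeing genes and served as another reading of the same arrays. Of 66 higher genes with a second probe, 27 (40.9%) were at least 2-fold higher in both fractions on it, and 0 were lower. Of 63 lower genes, 37 (58.7%) were lower on it and 0 higher. Among 4950 other genes the second probe was higher for 0.606% and lower for 1.15%. Itln1 (5.73), H2-Ab1 (-4.79), Apol9a (-3.47), Ifi202b (3.10) and Phf11d (-2.44) had similar mean differences on the second probe. Zfp933, a neighbour of Zfp979, did not, with -0.68 against -2.92. The probes hold a single reference sequence, and whether bases under them differ between the lines was not tested.

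**Figure D5:**
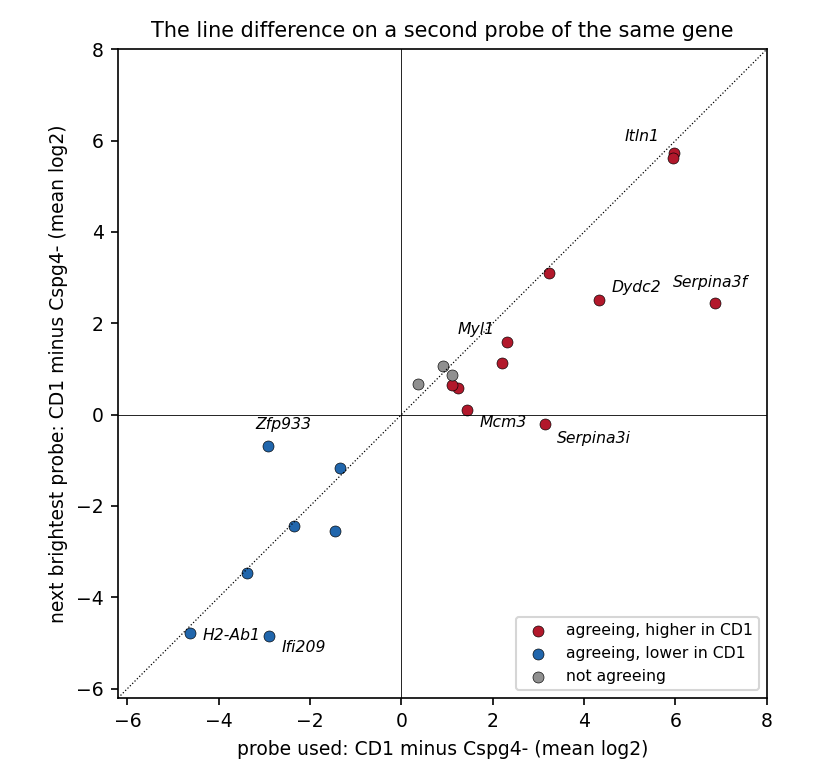
For the named genes with a second probe, the mean CD1 minus Cspg4- difference (log2) on the probe used (x axis) is set against that on the next brightest probe (y axis), and the dotted line marks equal values. Itln1, Ifi202b, H2-Ab1 and Apol9a lie near the line, while Serpina3f (6.86 and 2.43), Serpina3i (3.14 and -0.20) and Mcm3 (1.44 and 0.09) lie below it.

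Agreeing genes lay near each other more often than other tested genes. Of 606 agreeing genes with a position, 62.4% had another agreeing gene within 1 Mb, against 48.2% of 18140 other autosomal genes. This is a description, since members of a family can lie side by side. Transcripts and probes without a plain symbol at the same place also count here as separate genes, as they do in the intervals below. Shared probe sequence was read only for the Serpina3 genes. The Serpina3 interval, with Ifi27l2a at its start, held 8 agreeing genes among 12 tested (mm9 chromosome 12, 104680394 to 105632169), 5 higher and 3 lower. The Trim interval on chromosome 7 held 6 lower entries among 8 tested (111448499 to 111620864). Among the 6 are transcripts named only by an identifier or a position. The Gbp interval, of interferon-induced GTPases, held 3 lower genes of 3 (chromosome 3, 142209379 to 142300778). Csta2 lay beside Parp14, Dtx3l and Parp9, in an interval with 4 lower genes among 15 tested (chromosome 16, 35832992 to 36257511). The Mmp interval on chromosome 9 (5907352 to 7581387) held 7 agreeing genes among 13, 5 higher and 2 lower. Across chromosomes the agreeing share ran from 1.54% on chromosome 15 to 4.66% on chromosome 5, where the Oas genes lie.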

How the data were processed

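RNA of 7 mouse cell populations, 1 array each, was read in 1 green channel. The deposited scanner files hold fluorescence intensity per spot, background-subtracted by Agilent Feature Extraction 11.5.1.1 and with mm9 probe positions, per the file headers. A table of log2 values was also deposited and served as an alternative. The submitters' processing notes name lumi. Against the log2 intensity its slopes were 0.910 to 1.00 and its medians 5.15 to 5.17, and its centring stays unknown.

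Intensities of non-control spots were put on a log2 scale, less each array's 75th percentile. Outlier spots (153 to 168 on each of the 4 arrays) were set to missing. Replicate spots were averaged, and a probe was kept if 2 or more of the 4 arrays had it well above background. The brightest passing probe stood for a gene. Values under the lowest well-above-background signal of an array were raised to it for the agreement rule and for bounds written "at least". Of 55681 probes, 27737 were named through RefSeq accessions. Genes were fitted in limma 3.58.1 (R 4.3.3) by line and fraction. The fit was tested on simulated data.

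Named were Sdc4, Cspg4, sex-linked genes, Nnt and Glo1, the 14 genes in each direction with the largest smaller-of-the-fractions difference, up to 4 agreeing members per list (30 lists), and limma's 5 of smallest p in each direction. Members and lists were chosen with earlier results of these data known. Families, intervals, motif and promoters, genes marked so, and all other genes named (such as Isg15, Irf7, Stat2, C3, Hp, Pcna, Rps3 and H2-K1) were chosen after their values were seen. Alternatives changed scaling, background correction, filters, probes, fit terms and fold limit, and left out each array in turn. Some items are not reported here.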

Additional observations from a re-analysis of the deposited data

Results flagged for a closer look

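Some genes differed between the lines in opposite directions in the fractions. Of the autosomal genes, 54 were at least 2-fold different one way in Sdc4+ cells and at least 2-fold the other way in Sdc4- cells, and the difference between the fractions was not tested, since each fraction has 1 array per line. Ccl9, a chemokine of myeloid cells, differed by -2.11 in Sdc4+ and 2.41 in Sdc4- cells. Gzmm, a granzyme, differed by -2.07 in Sdc4+ and 1.96 in Sdc4- cells. Tpsab1, a mast cell tryptase, differed by -1.97 in Sdc4+ and 1.88 in Sdc4- cells. Actc1, cardiac actin, which is also made in immature muscle, differed by -1.71 in Sdc4+ and 2.91 in Sdc4- cells.

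The comparison left out genes that are not on autosomes or have no position in the files. H60a, a ligand of the activating receptor NKG2D that is known to be lacking in C57BL/6 mice, was at 2.30 in CD1 Sdc4+ and 1.74 in CD1 Sdc4- cells and not well above background in the Cspg4- cells or on the other 3 arrays. It was at least 55.0-fold higher in CD1 (limma adjusted p = 0.0306). Xist was higher in CD1 by 3.13 (limma adjusted p = 0.0658).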

How the results depend on the processing

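The number of genes passing the limma line test depended on the setting more than any other result. It was 34, and 162 with median scaling, 0 with quantile normalization (3166 at an unadjusted p under 0.05), 64 on the deposited series table (30 higher, 34 lower), 212 among genes well above background on all 4 arrays and 53 with no filter. It was 130 with no fraction term, 292 with the Cspg4+ array added and no fraction term, 988 with an intensity trend in the prior variance and 321 at an adjusted p of 0.1. With 1 array left out, in a fit with no fraction term (130 on all 4 arrays), it ran between 0 (without either CD1 array) and 51. That fit takes a lone array to have the spread of the other line.

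The agreement counts were 98 higher and 119 lower after normexp correction with quantile normalization, 823 and 899 at 1.5-fold, and 43 and 62 at 4-fold. Under the other alternatives they stayed within 1.5 times of 295 and 312. The cell cycle median was 1.08 with median scaling, 0.91 after normexp, 0.87 on the series table and 0.95 with the mean over probes. The interferon median was -2.13 with median scaling, -1.69 after normexp and -1.80 on the series table. Of 663 values of named genes under alternatives, 564 kept their direction and side of the threshold, 65 newly passed, 24 no longer passed (17 genes), 9 moved and 1 reversed, Serpina3i on its next probe (-0.20). The causes were not tested. Signal over background limits the dim genes, whose folds, where given, are bounds if both arrays of a line were dim. Genes dim on 1 array of the lower line, such as Wt1, Krt19, Krtdap, Myl1, Myh8, Csf3, Six4 and Abcc9, are given as measured. The dim level of these is uncertain. No paired analysis was possible because the replicate numbers, all 1, mark no pairs beyond the fraction, which is already a term of the fit.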
